A study of Rattus norvegicus with 8 samples.

Results

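Atf4 and Cebpb encode 2 transcription factors of the basic leucine zipper (bZIP) class, and their messenger RNA was measured in inguinal white fat, a subcutaneous depot of the groin, in rats whose diet held ample or little methionine. The 2 genes were taken by name for their roles in amino acid shortage and in fat cells. Each was read through the only probe named for it among 26857 probes of the array. Nearly all other probes are unnamed here, so another probe of either gene could be among them. The Atf4 probe carries the RefSeq accession of rat Atf4, and the Cebpb probe that of rat Cebpb. Male Fischer 344 rats, an inbred strain, ate standard chow up to an age of 32 days, after which random assignment put each on 1 of 2 purified amino acid diets for 20 months. DL-methionine made up 0.86% of the control diet (CON) and 0.172% of the restricted diet (MR). Each diet is represented by 4 single-colour arrays of pooled RNA from the depot, and no source used here gives the number of rats in a pool. Nothing states that the arrays of a diet came from separate pools, so every p-value reflects array-to-array spread, which may be technical.

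ATF4 is the central transcription factor of the amino acid response. When an amino acid runs short, uncharged transfer RNA activates the kinase GCN2, general protein synthesis slows, and translation of Atf4 messenger RNA rises through its upstream reading frames; ATF4 then switches on genes for amino acid synthesis and uptake. Much of this control acts on translation, which an array of messenger RNA does not read. C/EBP beta, the product of Cebpb, is an early factor of fat cell differentiation that acts ahead of PPAR gamma and C/EBP alpha. It can pair with ATF4 on composite C/EBP-ATF elements, and alternative start codons yield long activating and short inhibitory forms that an array cannot separate.

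The 250 bases before each gene's annotated start are shown because the question below is whether the 2 transcripts moved together, and capitals mark each ATF and CREB half-site, TGACG on either strand. Both come from RefSeq on rat build GRCr8, plus strand, Atf4 at chr7:113684431-113684680 and Cebpb at chr3:176816755-176817004.
Atf4: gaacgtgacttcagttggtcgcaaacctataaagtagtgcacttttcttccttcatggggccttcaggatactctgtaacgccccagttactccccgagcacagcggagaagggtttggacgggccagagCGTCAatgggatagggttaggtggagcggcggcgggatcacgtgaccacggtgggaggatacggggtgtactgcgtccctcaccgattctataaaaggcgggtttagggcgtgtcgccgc
Cebpb: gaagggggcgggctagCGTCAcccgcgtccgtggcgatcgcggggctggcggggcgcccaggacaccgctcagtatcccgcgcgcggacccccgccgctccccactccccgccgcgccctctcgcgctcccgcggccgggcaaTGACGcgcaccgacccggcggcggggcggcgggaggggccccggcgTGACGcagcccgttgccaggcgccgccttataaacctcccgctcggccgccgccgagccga
The Atf4 window held 1 half-site, beginning 120 bases before the start. The Cebpb window held 3, beginning 234, 107 and 61 bases before it. Of 27457 windows of this length, 19.0% held at least 1 half-site and 0.918% held 3 or more. The Cebpb window was 80.0% G and C and the Atf4 window 57.2%, against a median of 52.0%. The shares of windows were not matched for G and C content, and the cutoff of 3 equals the Cebpb count. Neither window held the full cAMP response element TGACGTCA (in 1.70% of windows), the composite element TGATGNAA (in 3.27%) or the C/EBP palindrome TTGCGCAA (in 0.164%), each read on both strands. The full element contains the half-site. These matches describe letters and say nothing of binding.

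Of the 8 arrays, CON replicates 1 and 2 stood apart by the measures below, though limma's array weights were lowest for other arrays. These weights were 0.47 for CON replicate 4 and 0.67 for MR replicate 3, against 0.76 for CON replicate 2 and 0.89 for CON replicate 1. In 371 tested probes CON replicate 1 differed from each other array by more than 2 log2 units, against 9 to 42 such probes in the other CON and 21 to 84 in the MR arrays. In 88 of 16114 tested probes CON replicate 2 sided with all 4 MR arrays, at least 2 log2 units higher than the rest of its diet. That count was made for CON replicate 2 alone and in that direction alone. The correlation of CON replicate 2 with MR replicate 1 over tested probes, 0.945, was the highest of all pairs. Results are therefore also given without these arrays.

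Both transcripts gave bright signals on every array, and neither passed the test for a diet difference. Atf4 stood at 0.862 times its CON level in MR and Cebpb at 0.90 times, and both intervals spanned no difference. The SD between arrays of a diet was 0.16 log2 units for Atf4 and 0.31 for Cebpb. No correlation between the 2 transcripts was detectable over the 8 arrays.

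The Atf4 signal was 16.35, 15.90, 16.16 and 16.28 in CON replicates 1 to 4, on the log2 scale of the authors' normalized values. It was 16.04, 15.98, 15.81 and 16.01 in MR replicates 1 to 4. All 4 MR arrays lay below the CON mean, but the diets overlapped because CON replicate 2 lay among the MR arrays, and only MR replicate 3 lay below every CON array. The diet means were 16.17 ± 0.20 in CON and 15.96 ± 0.10 in MR (SD, n = 4). The difference was -0.21 on the log2 scale, with an SE of 0.19, a 95% confidence interval of -0.64 to 0.21 and a limma adjusted p of 0.513. As a fold, the interval runs from 0.643 to 1.16 times the CON level. An exact two-sided permutation test over the 70 ways to divide 8 arrays gave p = 0.114, where 0.0286 is the smallest the design allows.

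Cebpb read 16.59, 16.75, 16.44 and 15.91 in CON replicates 1 to 4. In MR replicates 1 to 4 it read 16.20, 15.97, 16.50 and 16.41. All 4 MR arrays fell inside the CON range, whose lower end was set by CON replicate 4 alone. The means were 16.42 ± 0.36 in CON and 16.27 ± 0.24 in MR (SD, n = 4). The difference was -0.15 (SE 0.24, 95% confidence interval -0.68 to 0.38, limma adjusted p = 0.718), or 0.623 to 1.30 times the CON level. The exact two-sided permutation test gave p = 0.514.

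**Figure D1:**
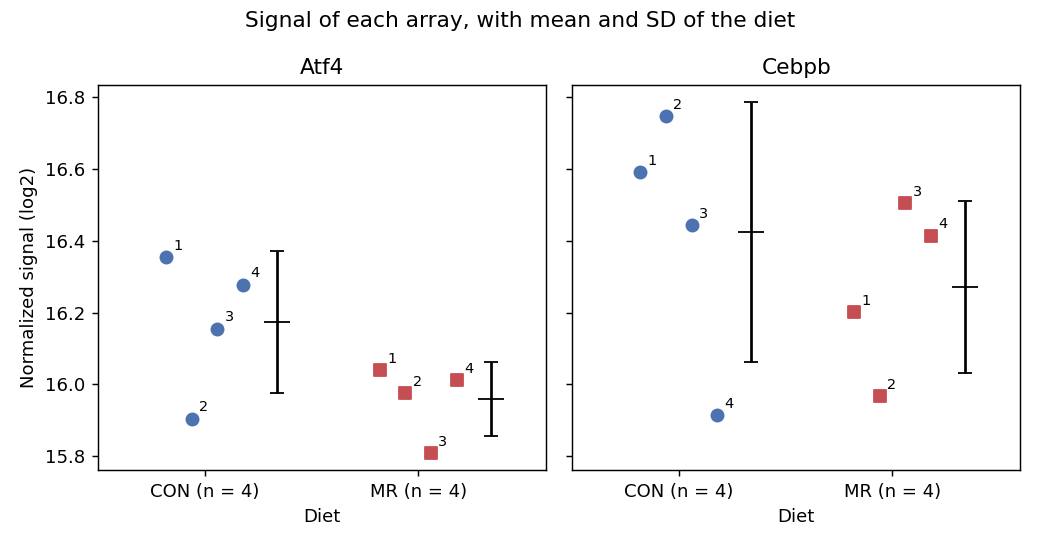
Normalized log2 signal of Atf4 (left) and Cebpb (right) on each of the 4 CON arrays (circles) and 4 MR arrays (squares), numbered by replicate, with the mean and SD of each diet in black. Atf4 in CON replicate 2 lies at 15.90 among the MR arrays, Cebpb in CON replicate 4 lies apart at 15.91, and the diets overlap for both genes. The vertical axis is shared, but 2 probes bind differently, so heights are compared within a panel.

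The test ran over 16114 probes with a mean signal above the 40th percentile, and a limma adjusted p under 0.05 counted as a call. Of all tested probes 2.14% were called, and 1.34% were called lower in MR; of the 2 genes, 0 were. The share of called probes is itself unsteady: without CON replicates 1, 2, 3 and 4 in turn limma called 19, 1335, 2 and 25 probes, and without MR replicates 1, 2, 3 and 4 in turn 523, 0, 10 and 2, against 345 with all arrays. Neither gene was among them in any of these fits. At an unadjusted limma p under 0.05 the share was 23.9% of tested probes and again 0 of the 2 genes, with p of 0.288 for Atf4 and 0.539 for Cebpb. With the spread limma assigned to each gene, a difference had to reach 0.86 for Atf4 and 1.07 for Cebpb to be called, which is 1.81-fold and 2.10-fold. Observed differences below these cutoffs could not be called in this fit with 4 arrays a diet. Set by the calls among all probes, the cutoffs are not limits for a true difference. The intervals leave out a 2-fold difference in either direction for both genes, over arrays of pooled RNA and not over rats.

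The diet differences of the 2 genes were small beside those of other probes. Sizes here are log2 differences, not scaled by the spread of each probe, which was small for Atf4. The size of the Atf4 difference exceeded that of 23.2% of tested probes, and the Cebpb difference that of 16.6%; the median size over tested probes was 0.50 on the log2 scale. Probes of like brightness mostly differed more than the 2 genes did. Among the 500 tested probes nearest in mean signal, the median size was 0.41 around Atf4 and 0.44 around Cebpb, and 28.0% and 18.0% of the neighbours had a smaller difference than the gene itself. Of these neighbours 8 and 13 were called. The signed difference had a median of -0.059 over all tested probes, 53.3% of which were lower in MR. Around Atf4 the median was 0.031 with 49.0% lower, and around Cebpb 0.021 with 49.6% lower.

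Atf4 was among the steadiest transcripts for its brightness. Its SD within a diet, pooled over both diets, was 0.16 on the log2 scale, smaller than in all but 2.80% of its 500 neighbours, whose median was 0.43. For Cebpb the SD was 0.31, and 23.0% of its neighbours, with a median of 0.44, had a smaller one. Over all 8 arrays the Atf4 signal spanned 1.46-fold and the Cebpb signal 1.78-fold. Limma draws each spread towards that of probes of like brightness, which made the Atf4 SE of 0.19 larger than the 0.11 from its own arrays. The Cebpb SE of 0.24 stayed close to its own 0.22. These spreads rest on 4 arrays a diet and are given as a description.

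**Figure D2:**
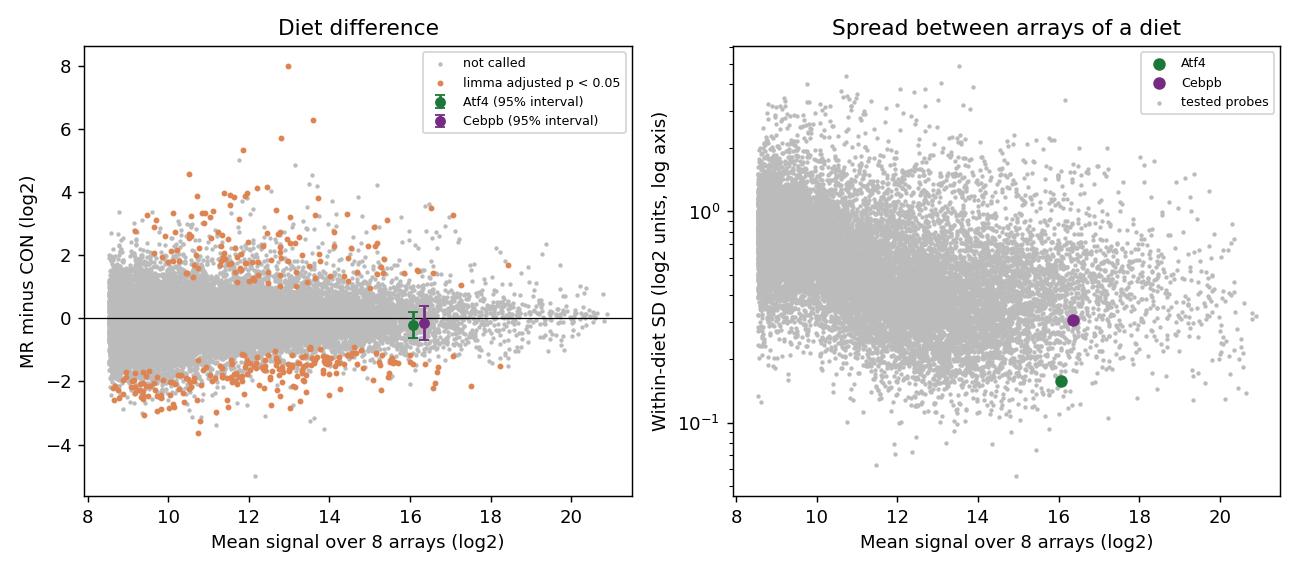
Left, the difference MR minus CON (log2) of each of the 16114 tested probes against its mean signal over 8 arrays (log2), with called probes in orange and Atf4 and Cebpb with their 95% confidence intervals. Right, the pooled SD within a diet (log axis) against the same mean: Atf4, at 0.16, lies at the lower edge of probes of its brightness, and Cebpb, at 0.31, lies nearer their middle.

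Both probes ranked near the top of every array. Counted from the brightest of 26857 probes, Atf4 held ranks 738, 991, 843 and 775 in CON replicates 1 to 4 and 908, 948, 1050 and 926 in MR replicates 1 to 4. Cebpb held ranks 629, 566, 695 and 985 in CON and 818, 954, 666 and 709 in MR. By its mean signal Atf4 stood in the top 3.09% of probes and Cebpb in the top 2.54%. Brightness depends on the probe as well as on the transcript, so a rank is not an order of abundance. All 8 columns of values share nearly one distribution, so that rank and signal of a probe carry the same information and the ranks add no second test.

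A relation between the 2 transcripts over the arrays was sought next and was not detectable. Pearson's r between Atf4 and Cebpb over 8 arrays was -0.22 (exact permutation p = 0.597) and Spearman's rho was -0.24 (exact permutation p = 0.582). With the 2 relations taken as a family, both Benjamini-Hochberg adjusted exact p were 0.597. Without CON replicates 1 and 4, the arrays farthest from the Atf4 median, r was -0.29 over 6 arrays (exact permutation p = 0.610). The sign rested on CON replicate 4, low for Cebpb and high for Atf4: without it r was 0.08. CON replicate 2 was the reverse case, lowest of its diet for Atf4 and highest of all arrays for Cebpb, and without it r was -0.03. Deviations from the diet means correlated at -0.51 over the 8 arrays, given as a description. The arrays share a normalization, and whether they are independent pools is not known.

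**Figure D3:**
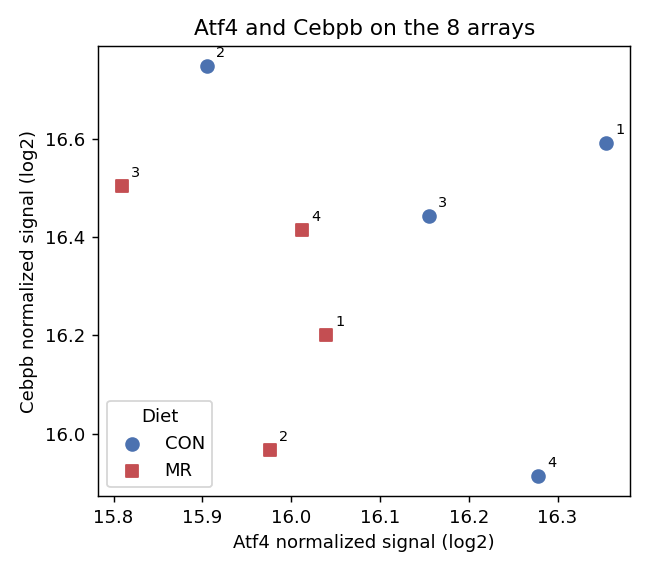
Cebpb signal against Atf4 signal (both log2) on the 8 arrays, with CON as circles and MR as squares, numbered by replicate. The points follow no line (r = -0.22): CON replicate 2 lies at top left, CON replicate 4 at bottom right and CON replicate 1 at top right.

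The diet differences of the 2 genes were also compared directly, as the change in Atf4 minus the change in Cebpb within arrays. This was -0.06 on the log2 scale (exact two-sided permutation p = 0.857), and ranged from -0.26 to 0.14 when 1 array was left out at a time. It was above 0 without CON replicate 4 and without MR replicate 3. An unequal change of the 2 transcripts was therefore not detectable, and an equal one is not shown.

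Among tested probes with a gene symbol, 11 besides each gene were compared with it over the 8 arrays, and the 3 highest Pearson's r are given as a measure of likeness. For Atf4 they were 0.64 for Ramp2, the adrenomedullin co-receptor subunit of endothelium, 0.62 for Rnase3, an eosinophil-type ribonuclease, and 0.0077 for Hbb-b1, a haemoglobin beta chain of red blood cells. For Cebpb they were 0.44 for Hbb-b1, 0.22 for Arhgef1 and 0.22 for Itgae, an integrin chain of tissue-resident lymphocytes. These are weak likenesses in this table: 2593 tested probes were closer to Atf4 than Ramp2 was, and 1998 were closer to Cebpb than Hbb-b1 was. Across all 16113 other tested probes, nearly all unnamed here, 151 reached an r above 0.9 with Atf4 and 23 with Cebpb. An r below -0.9 was reached by 102 with Atf4 and 10 with Cebpb. Cebpb itself came only at place 10062 in the order of likeness to Atf4. Each r in this comparison runs over both diets, so a diet difference that 2 probes share enters it. Atf4, Cebpb, Ramp2, Rnase3 and Hbb-b1 averaged lower in MR, and Arhgef1 and Itgae higher. Likeness within the diets to these other named probes was not computed.

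Of the markers of other cell types, 5 of 29 listed genes had a named probe and 4 of these were tested. Ramp2, 1 of 5 endothelial markers, was at 15.56 ± 0.67 in CON and 14.62 ± 0.47 in MR (SD, n = 4). Hbb-b1, 1 of 5 red blood cell markers, was at 20.08 ± 0.60 in CON and 19.38 ± 0.15 in MR. Neither passed the test (limma adjusted p = 0.147 and 0.231), and their part in the Atf4 and Cebpb values was not tested. Itgae and Rnase3, 2 of 7 immune markers, were at 11.31 ± 0.65 and 11.68 ± 0.47 in CON and at 12.11 ± 0.28 and 11.04 ± 0.69 in MR, and neither passed (limma adjusted p = 0.194 and 0.336). Mmp2, 1 of 5 fibroblast markers, lay below the intensity filter. None of the 8 adipocyte markers has a named probe, so the tissue label could not be checked against them. In RNA of whole tissue, fewer cells of a type and less RNA per cell cannot be told apart.

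The neighbours of Atf4 and Cebpb in their pathways could not be set beside them. Across 7 lists of 88 distinct genes, 0 had a probe with a symbol, since nearly all probes carry Celera transcript numbers that are not named here. The lists were the kinases and initiation factor upstream of ATF4 (7 genes), ATF4 targets such as Asns, Ddit3 and Trib3 (27), the C/EBP family (6), the ATF and CREB family (10), adipogenesis (18), fat cell products and lipid genes (16) and sulfur amino acid metabolism (11).

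For Atf4, too, CON replicate 2 lay inside the MR range. Without it the 3 CON arrays, at 16.16 to 16.35, all lay above the 4 MR arrays, at 15.81 to 16.04.

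The Atf4 difference without CON replicate 2 was -0.30, with a limma adjusted p of 0.336 and an exact permutation p of 0.0286, the smallest that 3 arrays against 4 allow. This separation was common. Without CON replicate 2, 14.6% of tested probes lay wholly lower in MR, and with all arrays 8.74% did. CON replicate 2 was singled out for its likeness to the MR arrays, so leaving it out favours separation of the diets. The exact p without it is therefore no support for a difference. A wholly lower MR group makes up 0.0286 of divisions of 3 against 4 arrays and 0.0143 of 4 against 4. Without CON replicate 1 the difference was -0.15 for Atf4 and -0.10 for Cebpb. Without CON replicate 2 the Cebpb difference was -0.04, without MR replicate 2 it was -0.05, and without CON replicate 4 it was -0.32. With both CON replicates 1 and 2 left out, Atf4 was at -0.26 and Cebpb turned to 0.09 (limma adjusted p = 0.499 and 0.852). The sign of the Cebpb difference thus rested on the 2 CON arrays with its highest signals.

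**Figure D4:**
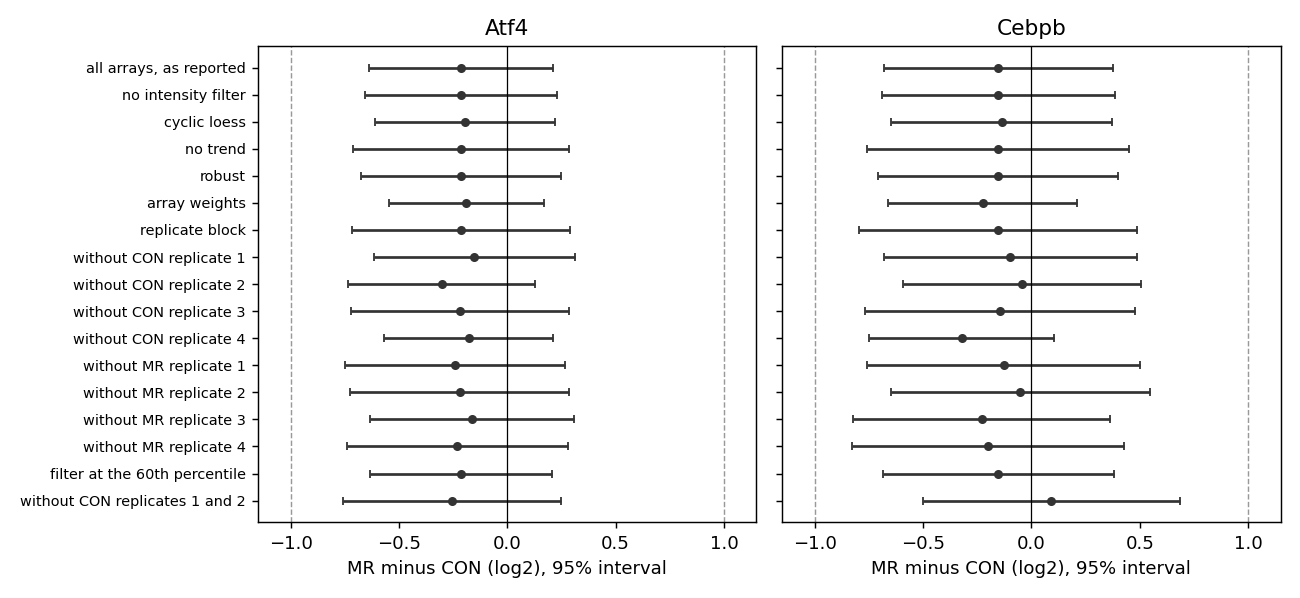
The difference MR minus CON (log2, points) with limma's 95% confidence interval (bars) for Atf4 (left) and Cebpb (right) in the reported fit and under 16 alternatives; dashed lines mark a 2-fold difference. Every interval spans 0 and stays inside the dashed lines, and the Cebpb point lies above 0 only without CON replicates 1 and 2.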

How the data were processed

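Per the labels' protocols, TriReagent and column-purified RNA was transcribed into DIG-labelled cRNA and read by chemiluminescence. The deposited values are log2 signals normalized by the authors. Base 2 was assumed from their range (4.90 to 21.29). All 8 columns share a median of 9.37 and nearly one distribution; no source used here names the normalization or background step. A second deposited table supplied gene identifiers only. Its 60 columns for 12 arrays match no sample label and were not used, so detection, saturation, slide and scan were not assessed.

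Identifiers were matched to RefSeq genes of GRCr8, for names only, which named 35 probes (34 by accession without version, 1 by synonym). Probes with a mean above 8.53, the 40th percentile, were tested with limma 3.58.1 in R 4.3.3 (lmFit, eBayes with trend, no covariate), two-sided, with Benjamini-Hochberg adjustment over 16114 probes. The fit was tried on data simulated with independent noise and no array standing apart. That trial says nothing of how the fit handles the real arrays. Single values used exact permutation tests (Python 3.11.15, numpy 2.4.6). The number of arrays limits the precision.

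The genes named are Atf4, Cebpb, listed genes with a named probe, and the 3 named, tested probes most correlated with each of the 2; Slc7a2, in the closing part, was chosen after its values were seen. The members and lists were chosen with earlier results of these data known. The markers set beside the results are those of the lists. Alternatives were no filter, cyclic loess, no trend, robust estimation, array weights, a replicate block and leaving out arrays; a filter at the 60th percentile and leaving out CON replicates 1 and 2 together were added after seeing the data.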

Additional observations from a re-analysis of the deposited data

Results flagged for a closer look

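Among 16 groups of 4 arrays examined, 2 held an array far from the other 3, judged by the distance between that array and its closest neighbour as a share of the group's whole range; chance gives this in about 1 in 20 groups. The count of tested probes in which an array differed from each other array by more than 2 log2 units gave a share of 0.909 in CON, from CON replicate 1. For Itgae, compared above with Cebpb, the share in CON was 0.867, from CON replicate 4 at 10.35, the array in which Cebpb was also lowest of its diet. For Atf4 the shares were 0.557 in CON and 0.723 in MR, and for Cebpb 0.635 and 0.436, none of them large enough to be singled out.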

How the results depend on the processing

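Atf4 was lower in MR in 16 of 16 alternative fits (limma adjusted p 0.336 to 0.686) and Cebpb in 15 of 16 (0.380 to 0.927). Calls numbered 0, and the exception in sign was Cebpb without CON replicates 1 and 2, at 0.093. Fits that changed only the filter, the trend, robust estimation or the block kept the reported difference, so their sign was fixed. The others reused the same arrays, so the tally is no separate support for a direction. With 1 array left out the differences ran from -0.30 to -0.15 for Atf4 and from -0.32 to -0.04 for Cebpb, the change in Atf4 minus that in Cebpb from -0.26 to 0.14, and r from -0.58 to 0.080 (the latter without CON replicate 4). The widest intervals of all 17 fits reached -0.76 to 0.31 for Atf4 and -0.83 to 0.69 for Cebpb. Against 129 probes higher and 216 lower in MR in the reported fit, limma called 50 and 97 without the filter, 27 and 76 without a trend, 644 and 785 with array weights, and 581 and 513 without CON replicates 1 and 2; cyclic loess gave 131 lower. Leaving out 1 array gave 0 to 636 higher and 0 to 699 lower: 636 and 699 without CON replicate 2, and 0 and 0 without MR replicate 2, with 3238 at an unadjusted p under 0.05. The replicate block gave 0 and 0, with 3465 at an unadjusted p under 0.05, and limma adjusted p of 0.580 for Atf4 and 0.765 for Cebpb. The replicate numbers were not treated as pairs in the reported fit because no label says that they mark pairs. Same-numbered arrays deviated from their diet means with correlations of -0.085, -0.25, -0.080 and 0.10, which do not settle whether they are pairs. A block or a smaller set of arrays lowers the degrees of freedom; beyond that, the cause was not tested. Signal over background was not assessed.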

Other observations

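Slc7a2, which encodes a cationic amino acid transporter, was on none of the lists and was chosen after its values were seen. The log2 signal averaged 7.65 ± 0.49 (SD, n = 4) under CON and 6.62 ± 0.45 under MR, with 7.02 to 8.15 in CON and 6.18 to 7.01 in MR, so the diets met without overlapping. Of the 10743 probes at or below the filter, 214, or 1.99%, lay wholly lower in MR, and a gene picked for its values is no evidence for a difference. It was dim in both diets, below the filter level of 8.53, and was therefore not tested; its signal over background was not assessed.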
